A study of Homo sapiens with 12 samples.

Results

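The comparison of 5-methylcytosine (5mC) with 5-hydroxymethylcytosine (5hmC) in untreated urothelial cells drew on 6 of the 12 libraries of the study. The cells were SV-HUC-1, a human urothelial epithelial line immortalised with SV40, kept for 3 days in blank solution, whereas the cells of the other libraries received DCBQ, a halobenzoquinone disinfection byproduct. Members were the control columns only, 3 of 5mC and 3 of 5hmC, at CpGs present in both tables on chromosomes 1 to 22: 3275953 of the 3533825 CpGs that the tables share. The control libraries were 3 of reduced representation bisulfite sequencing (RRBS), which enriches CpG-rich DNA, and 3 of its oxidative form (oxRRBS). The series credits 5mC to the first and 5hmC to the second, and the sources used here do not give how the deposited levels were computed from them. Whether the 3 samples of a mark were grown apart is not in the labels, and p-values therefore reflect only a spread between samples that may be technical. Levels are percent of the readings at a CpG, and the depth behind each level is unknown beyond the stated minimum of 5 reads. All positions are hg38.

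As background, 5mC is written at CpGs by DNA methyltransferases, copied onto the new strand after replication by DNMT1, and kept away from most CpG-dense start sites. TET dioxygenases oxidise 5mC to 5hmC, which is an intermediate of demethylation and can also persist. The mark is abundant in neurons and scarce in dividing cultured cells, and plain bisulfite does not separate it from 5mC, whereas oxidation before bisulfite does.

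The sequences of 6 promoters show what the measured CpGs look like, from unmethylated to methylated. Each run is the 250 bases before the RefSeq start site of the gene (GRCh38.p14, strand of the gene, 5′ to 3′), and capitals mark measured CpGs whose 5hmC averaged at least 5% over the 3 samples. CpGs in lower case averaged less or were not measured. VCPKMT (a lysine methyltransferase, chr14:50116573-50116822, minus strand) stands for promoters with neither mark. HOXD10 (a homeobox factor, chr2:176116528-176116777, plus strand) stands for a methylated promoter, SPACA1 (a sperm acrosome protein, chr6:88047591-88047840, plus strand) for a partly methylated one. MYO3A (a myosin of hair cells, chr10:25933979-25934228, plus strand) and PYCARD (the inflammasome adaptor ASC, chr16:31202761-31203010, minus strand) carried more 5hmC than the mean promoter of like 5mC, and ZNF597 (an imprinted zinc finger gene, chr16:3443505-3443754, minus strand) differed between samples.
VCPKMT: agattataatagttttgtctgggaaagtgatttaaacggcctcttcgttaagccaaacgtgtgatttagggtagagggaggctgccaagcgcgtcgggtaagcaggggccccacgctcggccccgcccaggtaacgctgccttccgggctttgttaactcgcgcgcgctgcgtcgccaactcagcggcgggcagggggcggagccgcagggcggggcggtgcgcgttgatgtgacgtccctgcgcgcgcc
HOXD10: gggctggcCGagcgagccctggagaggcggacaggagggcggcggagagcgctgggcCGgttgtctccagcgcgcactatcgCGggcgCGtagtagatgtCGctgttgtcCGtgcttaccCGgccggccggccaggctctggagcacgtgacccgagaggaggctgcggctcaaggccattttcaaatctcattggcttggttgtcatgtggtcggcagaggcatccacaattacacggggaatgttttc
SPACA1: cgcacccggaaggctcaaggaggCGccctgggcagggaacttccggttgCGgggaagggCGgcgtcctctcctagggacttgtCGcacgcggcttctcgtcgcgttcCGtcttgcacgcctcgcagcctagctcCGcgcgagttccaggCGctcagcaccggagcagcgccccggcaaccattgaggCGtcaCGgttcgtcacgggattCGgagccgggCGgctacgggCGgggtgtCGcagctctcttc
MYO3A: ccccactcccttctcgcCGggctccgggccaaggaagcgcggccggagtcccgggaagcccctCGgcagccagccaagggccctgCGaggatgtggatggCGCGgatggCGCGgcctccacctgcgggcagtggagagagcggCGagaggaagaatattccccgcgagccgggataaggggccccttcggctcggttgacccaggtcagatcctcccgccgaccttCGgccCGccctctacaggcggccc
PYCARD: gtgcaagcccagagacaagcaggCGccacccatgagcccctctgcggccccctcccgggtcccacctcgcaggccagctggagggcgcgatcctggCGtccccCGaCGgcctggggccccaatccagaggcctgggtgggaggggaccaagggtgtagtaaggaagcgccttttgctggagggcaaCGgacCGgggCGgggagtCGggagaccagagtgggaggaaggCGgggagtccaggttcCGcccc
ZNF597: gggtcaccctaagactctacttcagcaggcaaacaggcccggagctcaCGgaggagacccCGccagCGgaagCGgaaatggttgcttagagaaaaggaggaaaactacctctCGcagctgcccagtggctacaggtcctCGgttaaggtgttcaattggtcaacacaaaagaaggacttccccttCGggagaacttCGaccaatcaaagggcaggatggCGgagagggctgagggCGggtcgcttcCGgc
In VCPKMT, 5mC read 0.63%, 0.39% and 0.49% and 5hmC 0.17%, 0.46% and 0.29% in samples 1 to 3, and none of 18 measured CpGs reached 5% 5hmC. The sequence holds 29 CpGs, and those measured lie within 91 bases of the start. In HOXD10, 5mC read 83.67%, 79.98% and 81.14% and 5hmC 3.23%, 3.74% and 6.55%, with 7 of 16 measured CpGs in capitals. Its sequence holds 23 CpGs, and those measured lie 130 to 242 bases before the start, so levels next to the start are unknown. In SPACA1, 5mC read 36.83%, 38.1% and 36.78% and 5hmC 5.25%, 5.77% and 4.98%, with 13 of 31 in capitals and single CpGs averaging from 0.0% to 23.55%. The groups of values did not overlap in HOXD10 or SPACA1, and they overlapped in VCPKMT. In MYO3A, 5mC read 16.12%, 13.27% and 14.77% and 5hmC 10.65%, 5.85% and 6.28% over 18 CpGs. In PYCARD, 5mC read 11.88%, 15.43% and 16.35% and 5hmC 7.21%, 7.15% and 7.82% over 16 CpGs. As sample means over the promoter, every 5mC value of both lay above every 5hmC value, and mean 5hmC there was 7.59% and 7.39%. At single CpGs this did not hold throughout. At 147 bases before the start of PYCARD, 5mC averaged 2.93% and 5hmC 15.04%. Over promoters of 300 bases, which add 50 bases after the start, mean 5hmC was 8.04% in MYO3A and 6.23% in PYCARD. Both were above the mean of 4.20% over the 241 such promoters with 5mC of 10 to 20%. Both genes were chosen after their values were seen, from genes with 5hmC above the average gene. Their place above this mean therefore adds no support.

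Over all shared CpGs, 5mC was the abundant mark and 5hmC the scarce one. Mean 5mC was 54.4%, 54.1% and 54.2% in the 3 samples, 54.2% ± 0.15 (SD, n = 3), and mean 5hmC was 3.36%, 3.29% and 3.24%, 3.30% ± 0.061 (SD, n = 3). The difference was 50.9 percentage points (SE 0.093) and the ratio 16.4, with no overlap. An exact permutation test of 3 against 3, on both sides, gave its lowest attainable p of 0.1. The marks also differed in the shape of their distributions. For 5mC, 17.6% of CpGs read 0 and 42.0% read 80% or more, whereas for 5hmC 55.1% read 0, 10.7% read 10% or more and 0.002% read 80% or more. A CpG with 5mC above 0 was usually so in all 3 samples (75.8% of CpGs), while 5hmC was above 0 in all 3 samples at 14.03%, in 2 at 30.1%, in 1 at 32.5% and in none at 23.4%. Only 0.77% of CpGs exceeded 10% 5hmC in all 3 samples. The reading of 5hmC exceeded that of 5mC at 6.28% to 6.94% of CpGs per sample, but at the same CpG in all 3 samples in 12012 cases, 0.367% of CpGs.

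CpGs of intermediate 5mC carried the most 5hmC, CpGs of nearly full 5mC less, and CpGs with little or no 5mC the least. To keep class and value apart, each CpG was classed by its 5mC in 2 samples and its 5hmC was read in the remaining one. Mean 5hmC was 0.576% ± 0.01 (SD, n = 3) where 5mC was 0, 1.12% ± 0.04 at over 0 to 5%, 2.94% ± 0.118 at 5mC of 5 to 10%, and 5.73% ± 0.166 at 20 to 30%. It was highest at 50 to 60% 5mC, with 6.55% ± 0.441, then 4.53% ± 0.057 at 80 to 90% and 2.18% ± 0.059 at 95 to under 100%. The share of CpGs with any 5hmC followed the same course below 100%, from 15.3% at a 5mC of 0 to 63.3% at 50 to 60% and 45.0% at 95 to under 100%. At 100% 5mC the share was lower still, 32.3%, whereas mean 5hmC was slightly higher, 2.39% ± 0.086. Classes from 30 to 70% were close to each other: the 3 samples of the class of 50 to 60% ranged from 6.17% to 7.03%, and those of the classes of 30 to 40% (5.94% to 6.51%) and 60 to 70% (6.09% to 6.59%) overlapped this range. Promoters of 40 to 60% 5mC had the highest class mean of promoters (6.06% ± 0.27, 176 promoters), and tiles of 1 kb had theirs at 40 to 50% (5.85% ± 0.112). Genes, whose windows mix CpGs of every class, had theirs at 70 to 80% (4.02% ± 0.129).

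**Figure D1:**
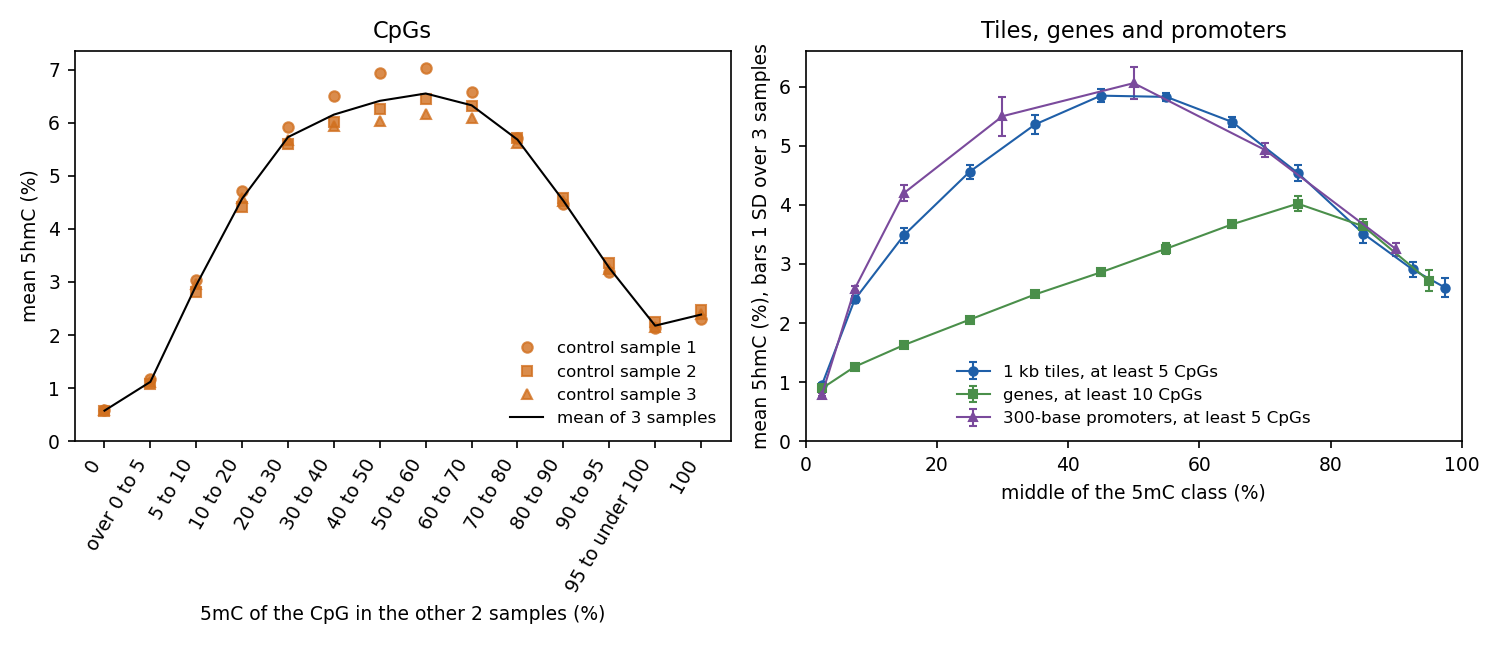
Mean 5hmC (%) by class of 5mC (%). Left, single CpGs classed by the other 2 samples, with a point per control sample and a line for the mean; right, 1 kb tiles, genes and promoters at the middle of their 5mC class, bars 1 SD over 3 samples. The CpG curve is highest at 50 to 60% 5mC (6.55%) and the gene curve at 70 to 80% (4.02%).

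The curve is also where values depend on how 5hmC was made. No deposited 5hmC level lies below 0, apart from 1585 rounding residues set to 0 here, and a level that cannot go below 0 averages above 0 wherever readings scatter. For the scatter, CpGs were classed by their mean 5mC over all samples, unlike in the curve. The median SD of 5hmC between samples at one CpG was 5.02 points at 50 to 60% 5mC against 0.731 points at over 0 to 5%. The scatter was thus largest at about the 5mC where the curve is highest, and its part in the curve was not tested. Within a class by this mean, 5hmC of single CpGs correlated between samples only weakly, with Pearson r of 0.101 to 0.172 at 50 to 60% and -0.165 to -0.135 at 90 to 95%. Marks of equal sample number deviated in opposite directions, so classing by the mean of all samples can itself lower these r. The size of that effect was not tested. Tiles of 20 or more CpGs within a class agreed better, with r of 0.369 to 0.403 at 40 to 60% 5mC and 0.511 to 0.536 at 5 to 20%. These correlations are across CpGs or tiles of the same libraries, which are not independent replicates.

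Both marks were depleted around start sites, 5mC more than 5hmC. In the first 250 bp after 15101 start sites, 5mC read 7.14%, 7.06% and 7.04% and 5hmC 1.24%, 1.22% and 1.26%. There 5hmC made up 14.9% of the summed level, against 5.04% in the most distant upstream bin, from 10 kb before the start, where 5mC averaged 56.9% and 5hmC 3.02%. Mean 5hmC was 0.576% even at CpGs of 0% 5mC in the other 2 samples, so the floor at 0 can raise this share where 5mC is low. Its part was not tested. CpG-rich start sites, with 20 or more CpGs in the 300 bases around the start, were lower still: their 5mC averaged 4.99% ± 0.041 and their 5hmC 1.11% ± 0.024 in that bin. Start sites with under 10 CpGs had another profile. In the 250 bp before them, 5hmC read 4.31%, 4.72% and 4.08%, and 5mC averaged 53.1% ± 0.295. In the bin of the same width from 1500 bp before them, 5hmC read 3.28%, 2.97% and 2.81%, and 5mC averaged 49.6% ± 0.275. In the bin from 500 bp before them, 5hmC read 3.73%, 3.64% and 3.93%, and 5mC averaged 55.5% ± 0.592. From 750 bp the means were 3.28% and 57.6%. The 5hmC just before the start thus lay above that of each of these bins, without overlap. Its 5mC lay above that of the bin from 1500 bp and below that of the 2 nearer bins. The 250 bp before the start rest on 1049 CpGs, and no test was run. Past CpG-poor starts both marks fell to their lowest at 500 to 999 bp, where 5mC averaged 27.6% and 27.7% and 5hmC 2.28% and 2.29% in the 2 bins.

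**Figure D2:**
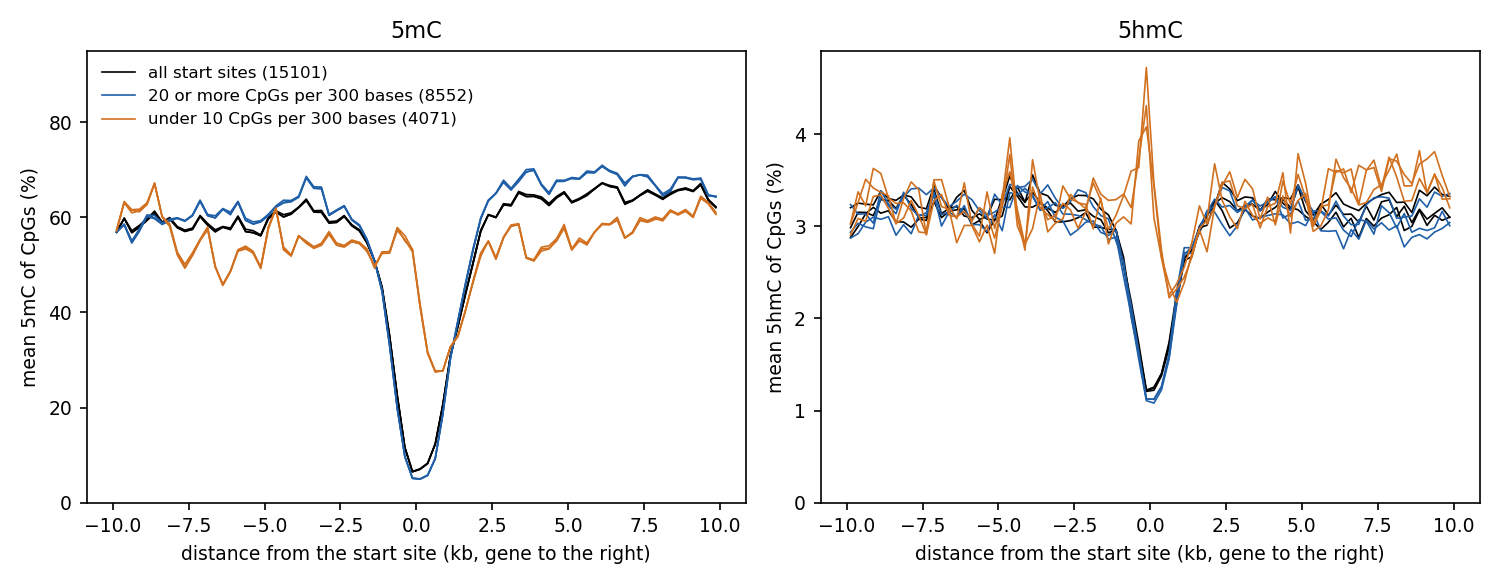
Mean 5mC (left) and 5hmC (right) of CpGs in 250 bp bins by distance from the start site (kb), with 1 line per control sample and colours for all, CpG-rich and CpG-poor start sites. Both marks dip at CpG-rich starts, to 4.99% and 1.11%, and 5hmC at CpG-poor starts peaks at 4.37% just before the start.

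Away from the 15101 start sites, 5mC was highest inside protein-coding genes and 5hmC outside them. CpGs of gene spans more than 2000 bp from these starts had 67.5% ± 0.16 5mC and 3.42% ± 0.1 5hmC (SD, n = 3). CpGs outside protein-coding genes had 63.7% ± 0.18 and 4.19% ± 0.05, with no overlap between the 2 locations in either mark. Spans came from all 18991 genes, so starts of genes without a promoter sequence were not set apart. Their part in these levels was not tested. At CpGs of 40 to 60% 5mC, mean 5hmC was 6.85% within 500 bp of a start, 6.66% at 500 to 2000 bp, 6.32% in gene spans and 6.60% outside genes, and the samples' ranges overlapped. At 95 to 100% 5mC, CpGs outside genes remained higher (2.41% to 2.52%) than those of gene spans (2.08% to 2.20%). Among 8630 promoters with at least 5 measured CpGs, both marks were lower the more CpGs the sequence held: 53.3% 5mC and 4.07% 5hmC with 5 to 9 CpGs in 300 bases (108 promoters), 21.8% and 2.21% with 10 to 19, 7.73% and 1.33% with 20 to 29, and 4.13% and 1.06% with 30 or more. The marks ranked the chromosomes differently: 5mC ran from 51.8% on chromosome 18 to 58.5% on chromosome 19, and 5hmC from 3.08% on chromosome 20 to 3.75% on chromosome 4, with chromosome 19 at 3.14% and chromosome 18 at 3.56%. The Spearman correlation over the 22 chromosomes was -0.42, given as a description.

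The 2 marks also differed in how well they repeated. Across CpGs the correlation between 2 samples was 0.975 to 0.976 for 5mC and 0.2 to 0.231 for 5hmC. Averaging raised the second value: to 0.298 to 0.318 in tiles of 5 to 9 CpGs, 0.643 to 0.669 in tiles of 20 to 39 and 0.873 to 0.881 in tiles of 80 or more, which are also the tiles of lowest 5mC (14.9% on average). In gene windows (the gene span with 1500 bp on either side) it was 0.747 to 0.751 over all tested genes and 0.927 to 0.932 in those with 500 or more CpGs, against at least 0.998 for 5mC. The absolute spread was alike, with a median SD between samples of 0.468 points for 5mC and 0.391 for 5hmC per gene. Relative to the level it was not, with a median coefficient of variation of 0.013 against 0.174.

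**Figure D3:**
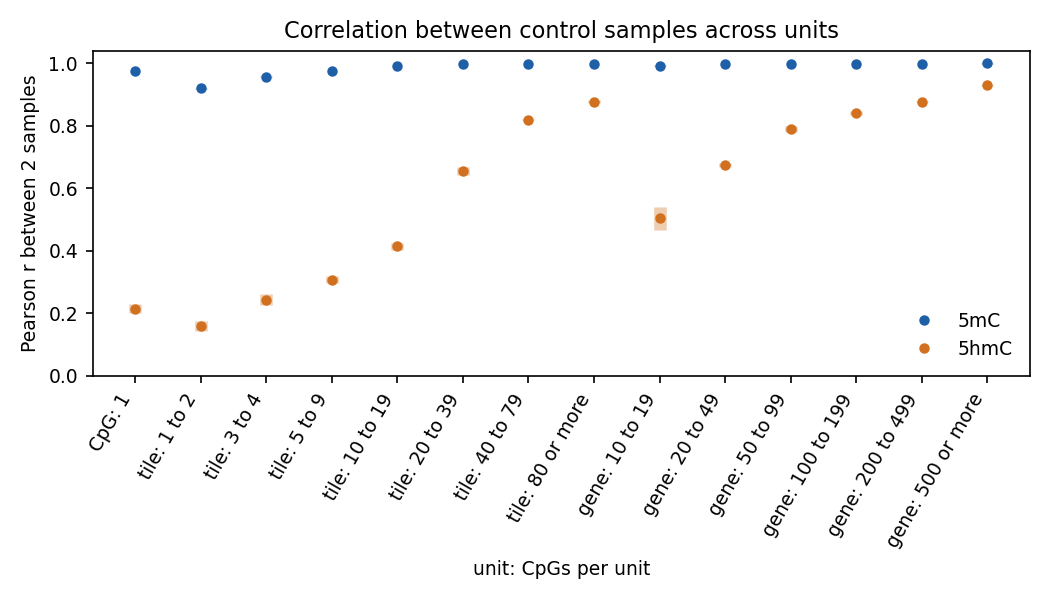
Pearson correlation between 2 control samples (y axis) across CpGs, 1 kb tiles and gene windows by number of CpGs per unit (x axis), with the points at the middle and the bars from the lowest to the highest of 3 sample pairs. For 5mC all units lie at 0.918 or above, and 5hmC climbs from 0.2 to 0.231 for single CpGs to 0.927 to 0.932 for genes of 500 or more CpGs.

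Of 18991 protein-coding genes, 16910 had at least 10 shared CpGs in their window and were tested, 6965 of them sharing a CpG with another window. In limma, 5mC was above 5hmC in 16599 genes (98.2% of genes tested, adjusted p at most 0.05) and 5hmC was above 5mC in 1 (0.00591%). Every 5mC value lay above every 5hmC value in 16630 genes (98.3%). The median difference was 41.2 points with a median SE of 0.379. That 1 gene was CSTF2T, a subunit of the mRNA cleavage stimulation factor (chr10:51693986-51701095, 18 CpGs). Its 5mC read 0.61%, 0.81% and 0.72% and its 5hmC 1.15%, 1.0% and 1.32%. The marks did not overlap there, with a difference of -0.44 points (SE 0.15, limma adjusted p = 0.0251), but both lay near 1%, and the call was lost without the mean-variance trend, without sample 3 and with the sample number as a block. Its window lies within that of PRKG1, so the CpGs are shared. In 34 genes mean 5hmC was above mean 5mC, and CSTF2T alone among them passed the test.

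Against the average gene of the same sample, 5mC was above in 8183 genes (48.4%) and below in 8303 (49.1%). CHRNA10, a nicotinic acetylcholine receptor subunit (chr11:3664087-3672884, 72 CpGs), had the highest 5mC among genes of 20 or more CpGs, with 97.68%, 97.15% and 97.73%. Its 5hmC read 1.57%, 1.84% and 1.48%, below the sample mean by 1.11 points (SE 0.16, limma adjusted p = 0.00245). Close behind came the histone gene H2BC12L (mean 5mC 96.08%), the imprinted gene NNAT (95.27%), LOC124905153 (95.12%) and RFLNB (94.76%), and 5hmC averaged 1.85% to 2.87% in these 4 genes. NNAT shares its window with BLCAP, and H2BC12L belongs to the histone multigene family, whose near-identical copies may share reads. The 5 genes of lowest 5mC were RLN1 (a relaxin hormone), SELENOH (a selenoprotein), ZBTB9, VCPKMT and PLRG1 (a splicing factor), with 0.38% to 0.63% 5mC and 0.45% to 0.84% 5hmC. In SELENOH, 5mC read 0.60%, 0.53% and 0.61% and 5hmC 0.62%, 0.26% and 0.96%. None of these 5 genes showed a difference between the marks in limma, the values overlapped, and the smallest adjusted p was 0.359.

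For 5hmC, 3409 genes (20.2%) lay above the average gene of the sample and 6461 (38.2%) below. The split depends on the centre, because the mean gene had 2.74% 5hmC and the median gene 2.47%: 34.5% of the calls were above with the mean, 47.0% with the median as centre and 45.0% on an arcsine square root scale. With 1 sample left out, 2104 (without sample 1), 2344 (without sample 2) and 2074 (without sample 3) genes were above. The marks went together across genes (Spearman 0.687 over 16910 genes, which are not independent replicates) but not across 1 kb tiles (-0.08). In 5446 genes both marks were below and in 2736 both were above. In 575 genes 5mC was below and 5hmC above, with median levels of 34.2% and 4.45%, and in 917 genes 5mC was above and 5hmC below, with 53.0% and 1.90%.

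The genes with the most 5hmC, among those called above with 20 or more CpGs, were KCNA10, SLC38A4, PTCHD3, ADAM2, MAMDC2, NMBR, NCR1, SPHKAP, CIMIP4 and APOBEC3A, with means from 8.54% to 9.85%. KCNA10, a voltage-gated potassium channel (chr1:110515717-110520675, 23 CpGs), read 10.83%, 12.01% and 6.71% 5hmC beside 52.21%, 53.35% and 57.50% 5mC, so sample 3 was low in 5hmC and high in 5mC. It stood above the sample mean by 7.11 points (SE 2.39, limma adjusted p = 0.0432). SLC38A4, an amino acid transporter (chr12:46763261-46833931, 42 CpGs), read 10.95%, 7.20% and 10.80% 5hmC beside 35.34%, 38.25% and 37.64% 5mC, above the mean by 6.91 points (SE 2.17, limma adjusted p = 0.0349). SPHKAP, an anchoring protein of protein kinase A (chr2:227978455-228183187, 91 CpGs), read 10.39%, 9.15% and 6.34%, and NMBR, the neuromedin B receptor, 5.71%, 8.29% and 12.32%. High 5hmC came with large differences between samples, and 5mC exceeded 5hmC in every sample of these genes. All 10 were called again with the median as centre, but only 3, 4 and 2 of them without sample 1, 2 and 3.

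Among the 575 genes with 5mC below and 5hmC above, which include SLC38A4, NMBR and SPHKAP, some had 5hmC with little spread between samples. The 8 with the smallest adjusted p (a set chosen after its values were seen, and one that this choice draws from genes of small spread) were SPACA1, ONECUT1, NLRP4, MYO3A, LOC124901483, PRRX1, PYCARD and NPTX2. ONECUT1, a liver and pancreas transcription factor (chr15:52753553-52791836, 326 CpGs), read 5.37%, 5.18% and 5.12% 5hmC beside 30.16%, 31.03% and 30.21% 5mC. Its 5hmC was above the sample mean by 2.49 points (SE 0.45, limma adjusted p = 0.00592). NPTX2, a neuronal pentraxin (chr7:98615785-98631369, 231 CpGs), read 6.09%, 6.15% and 5.30% beside 23.23%, 22.23% and 22.35%. PYCARD, whose promoter is printed above, read 5.2%, 5.04% and 5.19% over its 62 CpGs beside 25.67%, 30.51% and 27.49%. In each of these 8 genes the lowest 5hmC value exceeded the 2.74% of the mean gene, which follows from choosing them by adjusted p and adds no support.

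At the other end, SH3BP5L, RBM43, CLINT1, METTL26 and FZD2 had 5mC of at least 50% and the least 5hmC. SH3BP5L, an exchange factor for Rab GTPases (chr1:248808946-248827415, 47 CpGs), read 78.84%, 78.96% and 79.37% 5mC and 1.27%, 1.17% and 1.08% 5hmC, below the sample mean by 1.56 points (SE 0.13, limma adjusted p = 0.000248). FZD2, a Wnt receptor (chr17:44555984-44562762, 120 CpGs), read 52.39%, 52.66% and 52.30% 5mC and 1.21%, 1.15% and 1.45% 5hmC. KCNA10, with a like 5mC of 54.36%, had 9.85% 5hmC on average. Both genes were picked as extremes of 5hmC, so the gap between them was fixed by that choice. All 5 genes were called again without each sample in turn.

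**Figure D4:**
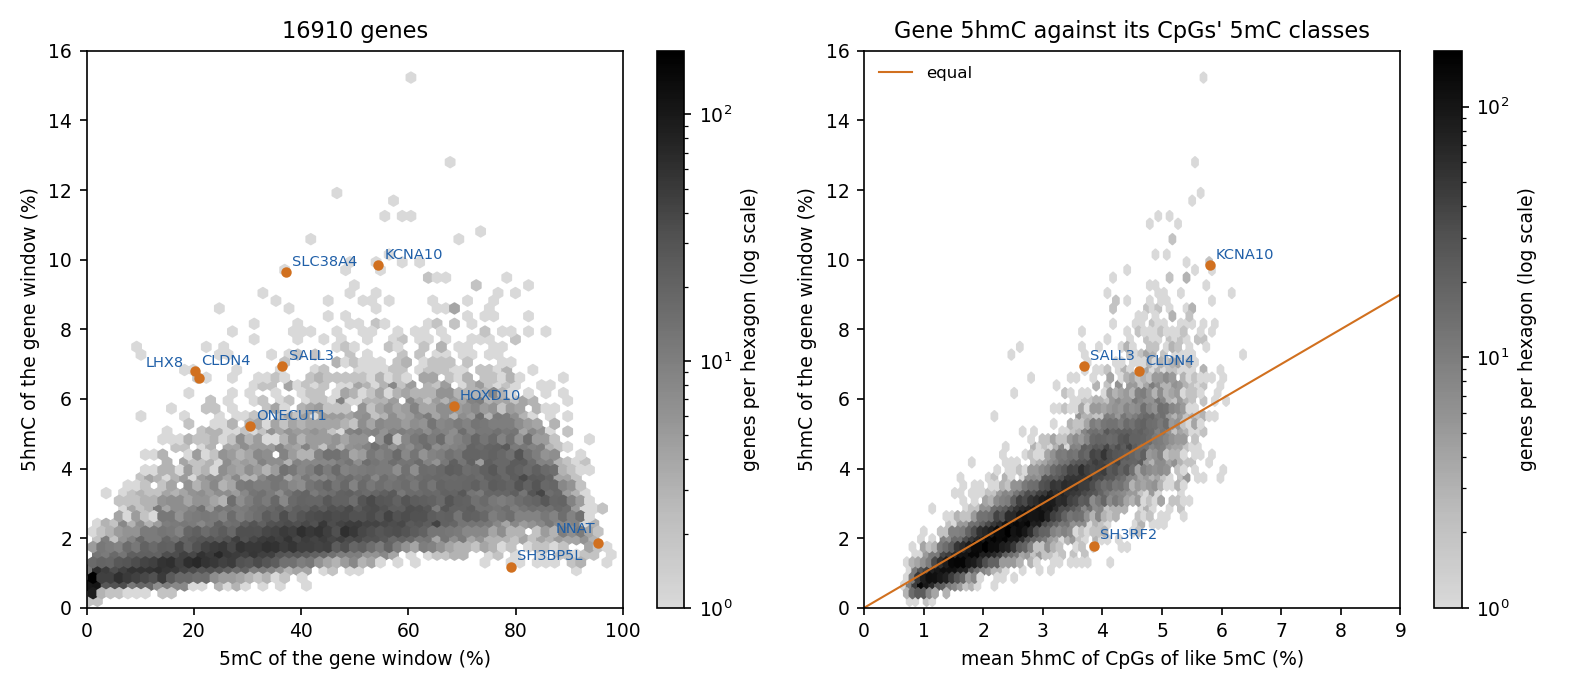
Left, 5hmC against 5mC (%) of 16910 gene windows, means of 3 samples, shaded by the number of genes per hexagon with named genes in orange; right, 5hmC of each gene against the mean 5hmC of CpGs in the 5mC classes its CpGs belong to, with the line of equality. On the left 5hmC ranges from 1.18% in SH3BP5L to 9.85% in KCNA10 among the labelled genes of over 50% 5mC, and on the right measured 5hmC follows the line of equality with scatter (r 0.897).

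The 5hmC of a gene went with the 5mC classes its CpGs belong to. A gene of medium 5mC can hold CpGs that are all partly methylated, or a mix of empty and full ones, and the class curve gives these different 5hmC. Each CpG was therefore set against the mean 5hmC of its 5mC class (14 classes from the other 2 samples). These class means, averaged over the CpGs of each gene, correlated with the gene's measured 5hmC at r = 0.897 over all genes and 0.946 over the 509 genes of 500 or more CpGs, and 69.1% of genes lay within 0.5 points of them. Against that centre, 0 genes were called above (0.0%) and 8 below (0.0473%) in limma, with 389 above and 3064 below at an unadjusted p under 0.05. Centred on genes of like mean 5mC instead, 1533 were above (9.07%) and 4536 below (26.8%). Both centres were added after the data were seen. KCNA10 lay 6.65 points above genes of like 5mC and 4.05 above its class means, without passing either test. What remained still repeated in part: the difference from the class means correlated between samples at r of 0.245 to 0.272 over all genes and 0.565 to 0.619 in genes of 500 or more CpGs. The class means share the 5mC tables and the floor at 0 with the values they are set against.

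The 8 genes below their class means were CWC22, SPATA12, SH3RF2, H4C7, OR5V1, ERLN, DEFB121 and APOL3, named as a full set. SH3RF2, an E3 ubiquitin ligase (chr5:145935078-146083273, 54 CpGs), read 1.92%, 1.85% and 1.60% 5hmC, 2.07 points below the class means (SE 0.16, limma adjusted p = 0.0492), at 79.74%, 78.16% and 79.82% 5mC. Of the others, CWC22, a splicing factor, had 43 CpGs and the other 6 had 11 to 18. SPACA1 lay 0.18 points below its class means, so its 5hmC was that of CpGs of like 5mC, whereas ONECUT1, MYO3A, PYCARD and NPTX2 lay 0.97, 1.42, 1.48 and 2.02 points above without passing the test.

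Many transcription factors of development carried more 5hmC than genes of like mean 5mC, though none was called against CpGs of like 5mC. The counts of this and the next lists are set beside those over all genes, with no test of the list. Of 117 tested developmental factors outside the HOX clusters, 51 were above the average gene in 5hmC and 19 below, against 20.2% and 38.2% of all genes. Their 5mC was above in 44 and below in 72, against 48.4% and 49.1% of all genes. Their median 5hmC was 3.62% and their median 5mC 37.0%, against 2.47% and 43.9% over all genes. Without sample 1, 2 or 3, 31, 35 and 31 were above, against 2104, 2344 and 2074 of all 16910 genes. Centred on genes of like 5mC, 51 were above and 16 below, against 9.07% and 26.8% of all genes. Centred on CpGs of like 5mC none was called, with a median difference of 0.15 points against -0.16 over all genes. OLIG3, a factor of the neural tube (chr6:137490699-137495894, 72 CpGs), had the most 5hmC of the list, with 6.97%, 8.16% and 6.83% beside 38.37%, 39.15% and 39.65% 5mC. LHX8, a LIM homeobox factor of forebrain and oocytes (chr1:75126934-75200954, 110 CpGs), read 6.72%, 6.66% and 6.46% beside 21.32%, 20.62% and 21.10%, and its 5hmC was above the sample mean by 3.87 points (SE 0.71, limma adjusted p = 0.00615). IRX2 went the other way, with 1.58%, 1.33% and 1.36% 5hmC at 48.45%, 48.43% and 48.52% 5mC, and was below. These 3 genes were picked as extremes of the list in 5hmC, so the gap of IRX2 from OLIG3 and LHX8 was fixed by that choice. The marks did not overlap within each of the 3.

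HOX genes did not share this as a list: 8 of 39 were above and 11 below in 5hmC, against 20.2% and 38.2% of all genes. In 5mC, 20 were above and 19 below, against 48.4% and 49.1% of all genes. HOXD10 led them, with 6.04%, 5.07% and 6.25% 5hmC beside 68.38%, 68.14% and 68.86% 5mC, and HOXB8 followed with 5.92%, 4.94% and 4.69% beside 31.46%, 33.62% and 30.67%. Of 53 clustered protocadherins, adhesion molecules of neurons on chromosome 5, 47 were above in 5hmC and 0 below, and 49 above in 5mC. Over all genes these shares were 20.2%, 38.2% and 48.4%, but the protocadherin windows overlap each other and count many CpGs repeatedly. Their number above dropped to 19, 35 and 14 without sample 1, 2 or 3, against 2104, 2344 and 2074 of all 16910 genes. Centred on genes of like 5mC, only 4 protocadherins were above and 0 below, against 9.07% and 26.8% of all genes. Centred on CpGs of like 5mC none was called, with a median difference of -0.08 points against -0.16 over all genes. PCDHB16 read 6.21%, 6.73% and 10.26% 5hmC and was high in sample 3.

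Housekeeping genes were poor in both marks. Of 45 tested, 29 were below the average gene in 5hmC and 2 above, and 37 below and 6 above in 5mC, with medians of 1.63% and 26.6%. Over all genes 38.2% were below and 20.2% above in 5hmC, and 49.1% below and 48.4% above in 5mC. ACTB, cytoplasmic beta-actin (164 CpGs), read 2.78%, 3.16% and 2.37% 5mC and 0.56%, 0.81% and 0.86% 5hmC, and the marks did not overlap. TUBA1B, an alpha-tubulin, read 1.30%, 1.05% and 1.0% 5mC and 0.92%, 0.77% and 1.21% 5hmC, which overlapped, and it was not called between marks. RPL11, a ribosomal protein of the large subunit, was one of the 2 above, with 5.30%, 6.28% and 3.49% 5hmC at a 5mC of 56.93%.

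Markers of the labelled epithelium had 5mC near that of all genes, and markers of other cell types had more. The median was 43.9% over all genes, 39.8% in 30 urothelial and epithelial genes, 71.0% in 21 genes of fibroblasts and smooth muscle and 76.7% in 25 of leukocytes and endothelium, and 15, 4 and 3 of them were below the average gene, against 49.1% of all genes. Median 5hmC was 2.62%, 3.75% and 3.81%, with 7, 10 and 11 above and 10, 2 and 2 below, against 20.2% and 38.2% of all genes. Centred on genes of like 5mC, 3, 2 and 1 were above and 4, 2 and 1 below, against 9.07% and 26.8% of all genes. CLDN7 and KRT18, a claudin and a keratin of simple epithelia, averaged 3.05% and 9.11% 5mC, and PTPRC and CD68, of leukocytes, 90.25% and 88.96%. VIM and ACTA2 of mesenchymal cells, however, averaged 6.07% and 10.23%. Methylation is not expression, and no other check of the labelled cell type was made here. CLDN4, a tight junction claudin (chr7:73829496-73834190, 42 CpGs, some shared with METTL27), combined low 5mC of 19.89%, 22.10% and 18.40% with 5hmC of 6.15%, 7.90% and 6.31%, above the sample mean by 4.05 points (SE 0.82, limma adjusted p = 0.0085). UPK3A, a uroplakin of the urothelial surface (66 CpGs), read 70.86%, 72.12% and 73.38% 5mC and 6.24%, 4.26% and 3.80% 5hmC.

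**Figure D5:**
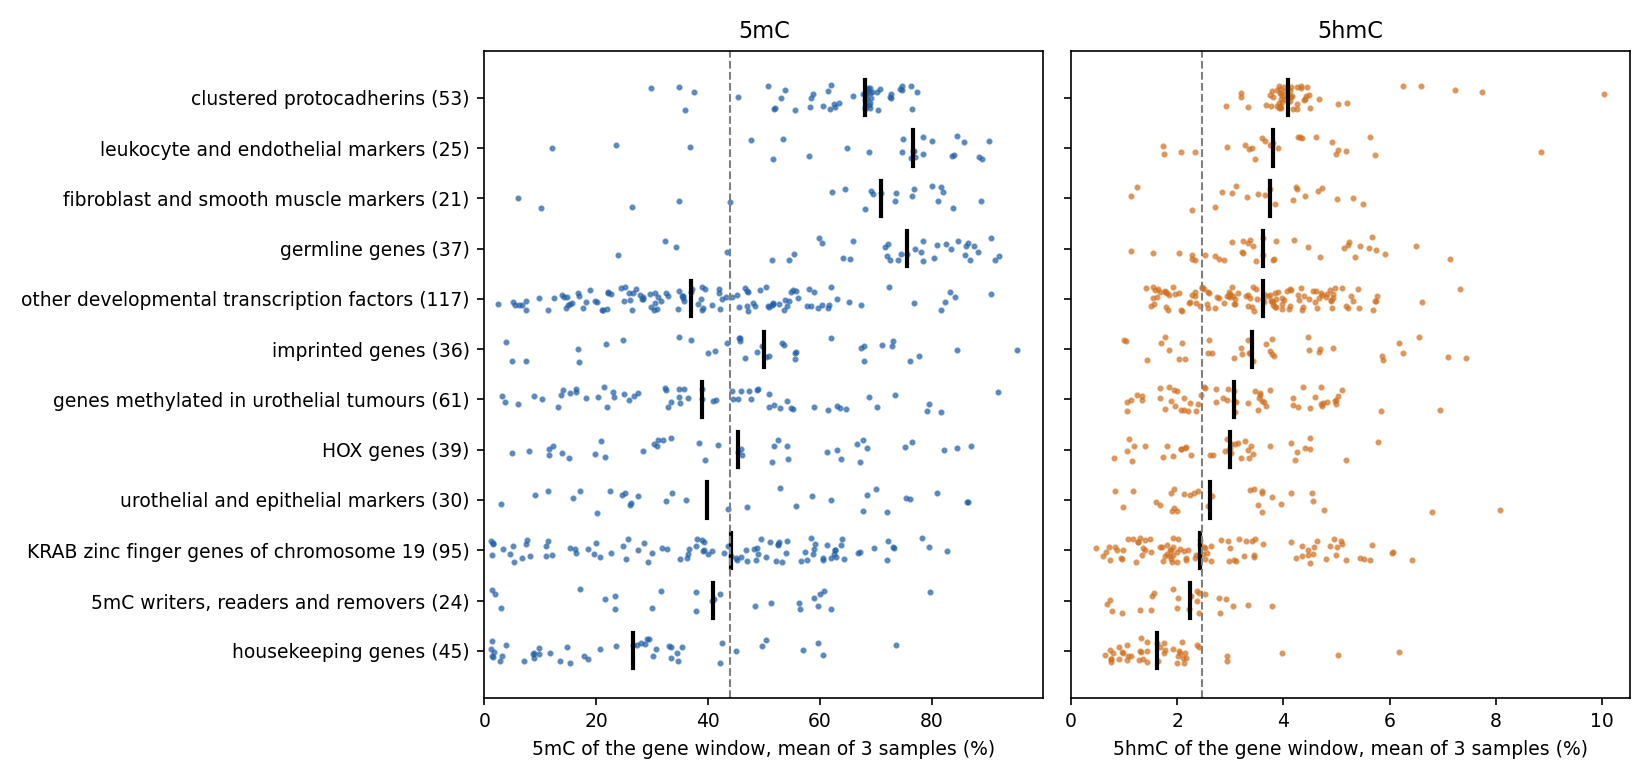
5mC (left) and 5hmC (right) of gene windows (%, means of 3 samples) by gene list, with a point per gene, a bar at the list's median, the number tested in brackets and a dashed line at the median of all genes (43.9% and 2.47%). Housekeeping genes have the lowest median of both marks (26.6% and 1.63%), and developmental factors lie left of the dashed line in 5mC (37.0%) and right of it in 5hmC (3.62%).

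Germline genes were the list with methylated promoters: 21 of 25 measured promoters had at least 50% 5mC, against 616 of 8630 over all genes, and the promoter medians were 83.1% 5mC and 3.27% 5hmC. Over gene windows, 33 of 37 were above in 5mC, against 48.4% of all genes, and 16 above and 3 below in 5hmC, against 20.2% and 38.2%. Centred on genes of like 5mC, 5 were above and 3 below in 5hmC, against 9.07% and 26.8% of all genes. DPPA4 and DPPA2, nuclear proteins of pluripotent and germ cells, had the most 5hmC, with 7.34%, 5.74% and 8.35% in DPPA4 and 7.42%, 5.71% and 6.38% in DPPA2. TDRD6, a Tudor protein of germ cells, had the most 5mC, with 92.83%, 92.47% and 90.65%, and 2.27%, 2.96% and 3.41% 5hmC. MAEL, of the piRNA pathway, had the least 5hmC, with 1.16%, 1.07% and 1.20%.

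Imprinted genes had medians of 50.04% 5mC and 3.41% 5hmC, with 12 of 36 above and 6 below in 5hmC, against 20.2% and 38.2% of all genes, the shares to set beside each list of this paragraph. MAGEL2, expressed from the paternal copy (chr15:23642049-23649367, 69 CpGs), read 6.51%, 8.49% and 7.34% 5hmC beside 78.23%, 74.81% and 75.52% 5mC. Genes often methylated in urothelial tumours had 21 of 61 above and 15 below in 5hmC, and SALL3, a zinc finger factor (chr18:78978318-79000469, 323 CpGs), read 7.22%, 6.10% and 7.48% beside 37.17%, 36.44% and 35.91%. SALL3 lay above the sample mean by 4.20 points (SE 0.83, limma adjusted p = 0.00783) and above its class means by 3.25 points, where it missed the threshold (limma adjusted p = 0.131). GSTP1, a glutathione transferase, read 4.43%, 3.25% and 3.39% 5mC and 2.12%, 1.95% and 1.57% 5hmC. KRAB zinc finger genes of chromosome 19 had 22 of 95 above and 38 below in 5hmC, close to the 20.2% and 38.2% of all genes, from ZNF587 (0.36%, 0.50% and 0.56%) to ZNF578 (5.16%, 7.32% and 6.77%). Of 24 genes that write, read or remove 5mC, 1 was above in 5hmC (DNMT3L, a partner of the de novo methyltransferases, with 3.59%, 4.3% and 3.46%) and 11 below.

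The genes that differed most between samples did so in both marks at the same time. By SD of 5hmC, among genes of 20 or more CpGs, these were LOC124907854, PNLIP, TRIM6, C16orf82 and TSBP1, and by SD of 5mC LOC124907854, H2AC12, ZNF597, S100A5 and LOC105379473. In LOC124907854 (86 CpGs), 5mC read 69.62%, 62.48% and 49.71% and 5hmC 4.21%, 9.78% and 19.53%. Here the highest 5hmC stood in the sample of lowest 5mC. The sum of the same-numbered columns was 73.8%, 72.3% and 69.2%, with an SD of 2.33 points. In TRIM6, 5hmC read 15.13%, 5.85% and 4.48% and the sum 87.0%, 83.0% and 83.3%. ZNF597, whose promoter is printed above, showed it most: over its 13 promoter CpGs 5mC read 46.79%, 21.45% and 52.28%, 5hmC 5.78%, 35.43% and 2.25%, and the sum 52.6%, 56.9% and 54.5%. Sample 2 was low in 5mC and high in 5hmC there, and its 5hmC was the highest at most of the CpGs in capitals. Its levels repeated the same few values at neighbouring CpGs, so few reads may lie behind them. The depth is unknown, and this was not tested. In LOC105379473 and the histone gene H2AC12 the sums themselves varied, with SDs of 8.18 and 6.31 points. Values of histone genes and of the uncharacterised LOC genes are uncertain where near-identical copies share reads.

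In 1 kb tiles with at least 5 CpGs, 5mC was above 5hmC in 174178 of 186394 (93.4%) and below it in 52 (0.0279%). Those 52 tiles had little of either mark, with medians of 0.83% 5mC and 2.31% 5hmC over a median of 6.5 CpGs, and their number was 83 to 114 with any 1 sample left out and 14 without the mean-variance trend. One with many CpGs, chosen after its values were seen, lies in the gene of LRP2, an endocytic receptor (chr2:169362001-169363000, 35 CpGs), with 1.55%, 0.734% and 1.87% 5mC and 2.02%, 2.83% and 2.58% 5hmC, and a difference of -1.095 points (limma adjusted p = 0.029). Against the mean tile of the sample, 118984 tiles (63.8%) were above and 50574 (27.1%) below in 5mC, a share of 70.2% above that became 49.9% with the median tile as centre. In 5hmC, 39857 (21.4%) were below and 0 (0.0%) above, though 3995 were above at an unadjusted p under 0.05. Centred on tiles of like 5mC, 12804 (6.87%) were below and 0 above. Without the mean-variance trend no tile was called in 5hmC. With at least 10 CpGs per tile, 90 of 90839 were above and 24542 below.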

How the data were processed

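Levels of 5mC and 5hmC per CpG came as 2 tables of the whole series in which the authors deposited fractions from 0 to 1, percent here after multiplication by 100. The submitters' processing notes name cutadapt, Trim Galore, BSMAP 2.90 and the build hg38. The sources used here do not give read counts per CpG, so precision is known only from the spread between samples. Columns of treated cells were not used. The tables were joined on chromosome and position, and 306697 of 306697 positions inside RefSeq promoter sequences lay on a CG. Gene positions came from RefSeq (GRCh38.p14), as a span with 1500 bp on either side and at least 10 CpGs, and tiles of 1 kb needed 5. The main tests were limma 3.58.1 (R 4.3.3) with a mean-variance trend and Benjamini-Hochberg adjustment over all genes or tiles at 0.05: 5mC against 5hmC, and each mark against the sample mean. Scripts were tested on simulated data. Other values came from scipy 1.17.1, pandas 2.3.3 and numpy 2.4.6 under Python 3.11.15.

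Genes named are those with the highest or lowest level, the most negative difference or the largest SD, with at least 20 CpGs for levels and SDs, and the extremes of each gene list. The members and lists were chosen with earlier results of these data known. Alternatives covered scale, centre, trend, filters, windows, left-out samples and a block.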

Additional observations from a re-analysis of the deposited data

How the results depend on the processing

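Depth per CpG is unknown, 3 samples a mark cannot reach an exact p below 0.1, and 5hmC of single CpGs repeats too poorly for a call at one CpG, so values rest on averages over CpGs. The global difference of 50.9 points was 62.5 over 1 kb tiles and 47.5 over CpGs whose marks sum to at most 1 within rounding. In the class of 50 to 60% 5mC, 5hmC was 7.34% with the class from the same sample and 5.83% in tiles, against 6.55%. Over the 9945 genes sharing no CpG, 9781 genes were called between marks, 9671 in 5mC and 5766 in 5hmC. The 9870 calls in 5hmC became 6069 centred on genes of like 5mC and 8 on CpGs of like 5mC. Genes called with 5hmC above 5mC numbered 0 to 2 with 1 sample left out, 3 without flanks, and 0 without trend, with 20 CpGs or among genes sharing none. Tiles so called numbered 83 to 114 with 1 sample left out, 79 on the arcsine scale, 14 without trend and 22 with 10 CpGs. With 10 CpGs, 81484 tiles were called between marks, 87450 in 5mC and 24632 in 5hmC. The 39857 tile calls in 5hmC became 16215 on the arcsine scale, 12804 centred on tiles of like 5mC and 0 without trend (limma, 56762 at an unadjusted p under 0.05). The cause was not tested beyond the smaller number of genes or tiles. The centrings on like 5mC were chosen after seeing the data.

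With a replicate block on the sample number, 16515 genes were called with 5mC above 5hmC and 0 the other way, 171671 tiles were called, and the global difference kept its 50.94 points (sign-flip permutation p = 0.25, the smallest for 3 pairs). Equal numbers tied the marks in opposite directions: deviations at a CpG correlated at -0.574, -0.613 and -0.605 for equal numbers and at 0.275 to 0.332 for different ones. Deviations were taken from the mean of the 3 samples of a mark. Negative values for equal numbers therefore force positive ones, on average, for different numbers. The number was not used as a pairing in the main tests, which therefore treat the marks of equal number as independent. With opposite deviations, their SEs of 5mC minus 5hmC for single genes and tiles can be too small. The counts with the block are those that take the number into account.

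With 1 sample left out, the 5hmC of 8 named genes relative to the sample mean changed sign or reached 0. It ran from -0.77 to 0.96 in FAM50B, -0.78 to 0.74 in H2BC12L, -0.27 to 0.18 in H4C6, -0.07 to 0.54 in HELLS, -1.16 to 1.03 in HOXA2, -0.05 to 0.38 in PCDHAC1, -0.52 to 0.0 in SOX10 and -0.15 to 0.48 in TDRD6. The sign also changed in HOXA2 (-1.05), PHLDA2 (1.59) and TDRD1 (0.74) without flanks, NEUROG3 (0.03) against the median gene and ZNF548 (-0.11) over CpGs summing to at most 1. Without sample 1, 2 and 3, 19, 13 and 17 named genes lost their call.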
